A study of Mus musculus with 2 samples.

Results

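The genes of a matrix-degrading system and its inhibitors were followed through the leukocytes of B16F10-OVA melanomas: the matrix metalloproteinases (MMPs) Mmp8, Mmp9, Mmp12, Mmp13, Mmp14, Mmp19 and Mmp25, and the tissue inhibitors of metalloproteinases (TIMPs) Timp1, Timp2 and Timp3. These are 10 of the 32285 genes in the deposited count matrices, selected on their measured counts in macrophages, monocytes, neutrophils and dendritic cells of both libraries and listed by symbol. Their levels and the ratios between the libraries are therefore given as descriptions, without a test.

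In the study, mice received B16F10-OVA cells under the skin. B16F10-OVA is a mouse melanoma line that carries ovalbumin as a model antigen. The tumour-bearing mice were then injected with either PBS, the control, or UDSP-Hep, an agent the labels name without describing, on days 10, 12, 14 and 16. On day 19, 3 tumours of each group were taken, stained for the pan-leukocyte protein CD45 and sorted for CD45+ cells, and each group gave 1 droplet-based single-cell RNA library. With 1 library per group there is no replicate, and no difference between PBS and UDSP-Hep can be tested against the spread between tumours.

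MMPs are zinc-dependent endopeptidases that cut collagens, elastin and other parts of the extracellular matrix, and also release or inactivate cytokines and chemokines. Most are secreted as inactive precursors, while some stay attached to the cell surface, and TIMPs bind the active site and block it. In tumours, macrophages and neutrophils are established sources of MMPs.

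The PBS library held 7379 cell barcodes with 74685827 unique molecular identifiers (UMIs, each standing for 1 captured RNA molecule), and the UDSP-Hep library 7872 barcodes with 64241224. After filters on UMIs, genes, mitochondrial share and likely doublets, 6660 and 7194 cells were kept, with a median of 7841 and 5483 UMIs. No cell annotation was used here, so cells were assigned to types by fixed marker genes that do not include the 10 genes, and the names are rebuilt rather than the authors'. The gates gave 998 PBS and 613 UDSP-Hep macrophages, 2278 and 1406 monocytes, 52 and 661 neutrophils, and 490 and 226 dendritic cells. In the neutrophil gate the 8 neutrophil markers summed to 44678 counts per 1000000 UMIs (CPM) in PBS and 46659 in UDSP-Hep, and in the macrophage gate the 9 macrophage markers summed to 9938 and 10384 CPM. Markers of fibroblasts, another usual source of MMPs and TIMPs, summed to 0.322 and 0.469 CPM in macrophages, with Lum and Pdgfra at 0 in both libraries, and melanoma markers to 19.2 and 17.0 CPM. Of the kept cells, 14.7% and 15.9% met no gate. The libraries shared 25 barcodes, of which 23 and 21 were kept, and leaving these cells out changed no count of genes below.

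Levels below are the summed UMIs of a gene in all cells of a gate, in CPM, with an exact Poisson 95% interval. Ratios are UDSP-Hep over PBS, with an exact conditional interval. All intervals cover counting error only. A UMI counts a molecule, so CPM was not divided by gene length. A gene is called higher or lower where its ratio passes 1.5-fold, the interval excludes equality and the 2 libraries together hold at least 20 UMIs.

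**Figure D1:**
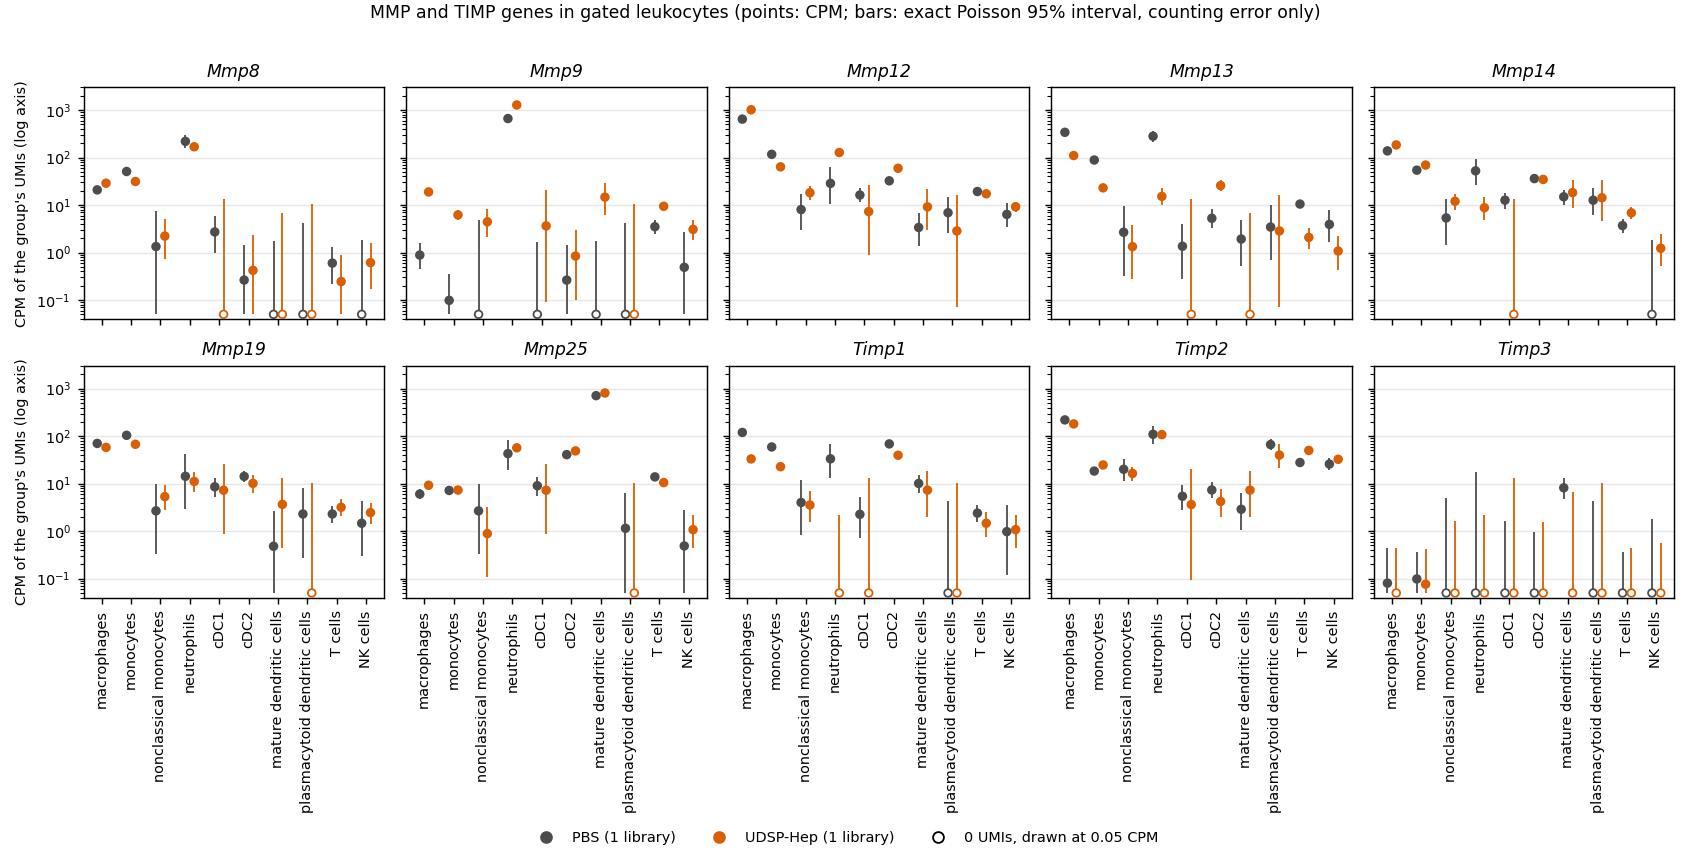
Level of each gene (CPM, log axis) in 10 gated cell groups of the PBS library (grey) and the UDSP-Hep library (orange); points are summed levels and bars exact Poisson 95% intervals. Mmp9 peaks in neutrophils, Mmp25 in mature dendritic cells and Mmp12 in macrophages, while Mmp13 and Timp1 sit lower in UDSP-Hep than in PBS in both macrophages and monocytes.

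The genes differed in the cells that held most of their UMIs. Mmp12, macrophage elastase, was a macrophage gene: 51.9% of its 15413 UMIs in PBS and 60.9% of its 14212 in UDSP-Hep lay in gated macrophages, and most of the rest in cells that met no gate (30.2% and 28.6%). Mmp13, a collagenase of fibrillar collagen, followed with 46.9% of 8996 and 35.1% of 2680 UMIs in macrophages. Cells that met no gate held 30.7% of its UMIs in PBS and 48.5% in UDSP-Hep, in the latter more than the macrophages. Timp2 was also mainly in macrophages, with 64.1% of 4265 and 43.3% of 3571 UMIs. Mmp14, a membrane-bound MMP that activates other MMP precursors, was spread over macrophages (44.2% and 40.3%) and monocytes (28.4% and 23.3%).

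Mmp19 was led by monocytes, which held 57.6% of its 3668 PBS UMIs and 46.6% of its 1892 UDSP-Hep UMIs. Mmp8, known as the neutrophil collagenase, had 64.0% of its 1612 PBS UMIs in monocytes and 2.85% in neutrophils. In UDSP-Hep, where 661 neutrophils were gated against 52, monocytes held 36.1% of 1135 and neutrophils 25.4%. As a level in CPM, Mmp8 was still highest in neutrophils in both libraries, at 219 CPM (161 to 293) and 169 CPM (150 to 189), against 50.9 and 31.4 CPM in monocytes. Timp3, a TIMP that binds to the matrix, was all but absent, with 22 UMIs in PBS and 3 in UDSP-Hep.

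The genes lie on 7 chromosomes of the mouse genome (GRCm38). Mmp13 (7272514 to 7283331), Mmp12 (7344381 to 7369499) and Mmp8 (7558456 to 7568485) share the MMP cluster of chromosome 9, all on the plus strand. The other genes of that cluster were nearly silent in kept cells: Mmp10 had 19 UMIs in PBS and 5 in UDSP-Hep, Mmp27 had 42 and 40, and Mmp3, Mmp7, Mmp20 and Mmp1b had at most 2 each. Mmp9 is at 164940780 to 164955850 of chromosome 2, Mmp14 at 54431612 to 54445364 of chromosome 14 and Mmp25 at 23628311 to 23645277 of chromosome 17. Timp3 (86300372 to 86349506) and Mmp19 (128790910 to 128800824) are on chromosome 10. Timp2 is at 118301069 to 118355740 of chromosome 11 and Timp1 at 20870166 to 20874735 of chromosome X. Timp1 lies within the bounds of Syn1 on the opposite strand, and Timp3 within those of Syn3. Mmp19 overlaps the antisense gene Gm47093 and Tmem198b, Mmp12 overlaps Mmp1b, and Mmp25 overlaps processed pseudogenes, each on the opposite strand. Timp2 overlaps Cep295nl on its own strand. The sources used here do not say whether counting used strand, so reads of such overlapping pairs could be shared.

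Because Mmp12 and Mmp13 are neighbours that moved apart between the libraries in macrophages, and Timp1 was lower there together with Mmp13, the 150 bases before their annotated starts are shown (RefSeq, GRCm38.p6, plus strand, 5′ to 3′). Capitals mark TGANTCA, the core recognised by AP-1 factors, which reads the same on both strands.
Mmp13, chr9:7272364-7272513: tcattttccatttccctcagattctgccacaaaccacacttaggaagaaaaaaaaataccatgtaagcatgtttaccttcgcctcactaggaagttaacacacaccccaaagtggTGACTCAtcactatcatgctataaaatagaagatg
Mmp12, first start, chr9:7344247-7344396: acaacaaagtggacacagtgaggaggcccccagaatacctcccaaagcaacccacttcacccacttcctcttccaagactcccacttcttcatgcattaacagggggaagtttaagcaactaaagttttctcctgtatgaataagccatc
Mmp12, other start, chr9:7347224-7347373: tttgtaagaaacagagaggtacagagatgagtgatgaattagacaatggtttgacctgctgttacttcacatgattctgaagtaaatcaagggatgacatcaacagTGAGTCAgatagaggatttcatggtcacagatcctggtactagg
Timp1, chrX:20870016-20870165: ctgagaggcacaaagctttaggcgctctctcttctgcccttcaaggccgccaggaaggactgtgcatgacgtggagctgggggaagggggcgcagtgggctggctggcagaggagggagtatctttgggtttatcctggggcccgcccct
Over the 250 bases before each start, Mmp13 held 1 match beginning 35 bases before the start, and 1 of the 2 Mmp12 starts held 1 beginning 44 bases before it. The other 7 promoters of the 8 genes in the table held none, and 6.75% of all 32851 promoters of this length held the motif (2217). A match describes the letters only. Mmp9 and Mmp19 were not in the promoter table.

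In macrophages, Mmp12 was higher in UDSP-Hep while Mmp13 and Timp1 were lower. Of the 9 genes with enough UMIs, 3 were called higher (Mmp9, Mmp12 and Mmp25) and 2 lower (Mmp13 and Timp1), 4 were neither, and Timp3, with 1 UMI, was under the minimum. Over all 11259 genes tested in macrophages, 9.58% were called higher and 4.69% lower. Since the 10 genes were listed from these same counts, nothing is read from their share. The median log2 ratio of the 9 was 0.42, beside 0.09 over all genes.

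Mmp13 had 4221 UMIs in PBS macrophages and 940 in UDSP-Hep macrophages, or 340 CPM (330 to 351) against 110 CPM (103 to 118). The ratio was 0.324 (0.302 to 0.348). Cells with at least 1 UMI of Mmp13 were 30.8% in PBS and 15.01% in UDSP-Hep. The intervals lay far apart, and thinning every cell to 1000 UMIs left the same order, 14.7% against 4.26% of cells. T cells, which should lack the gene, had a UMI in 3.16% and 1.22% of cells at median depths of 6266 and 5172 UMIs, against 10113 and 11923 in macrophages.

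Timp1, the soluble inhibitor of most secreted MMPs, had 1488 and 283 macrophage UMIs, or 120 CPM (114 to 126) against 33.2 CPM (29.5 to 37.3), a ratio of 0.277 (0.243 to 0.315). Its share of positive macrophages was 34.5% in PBS and 10.1% in UDSP-Hep, with 0.721% and 0.652% in T cells. Timp2, a soluble TIMP that also takes part in activating the Mmp2 precursor at the cell surface, was 220 CPM (212 to 229) and 181 CPM (172 to 191), a ratio of 0.823. Timp1 thus made up 35.3% of the TIMP UMIs of PBS macrophages and 15.5% of those of UDSP-Hep macrophages.

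Mmp12 was the most abundant of the 10 in macrophages, at 645 CPM (631 to 659) in PBS and 1016 CPM (994 to 1037) in UDSP-Hep. The ratio of 1.57 (1.53 to 1.62) was close to the threshold of 1.5, and fell short of it at 1.48 with median-of-ratios scaling and at 1.29 with the clusters described further on given equal weight. Positive cells were about as frequent in both libraries, 33.2% and 35.2%. Mmp14 was found in the most cells, 59.6% and 72.8%, at 138 CPM (132 to 145) and 185 CPM (176 to 194), a ratio of 1.34 that did not reach the threshold.

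The other MMPs were lower in level. Mmp19 stood at 70.4 and 58.1 CPM in macrophages (ratio 0.825) and Mmp8 at 20.9 and 28.9 CPM (ratio 1.38), neither of which was called. Mmp25, a membrane-anchored MMP first described in leukocytes, had 75 and 79 UMIs, or 6.05 CPM (4.76 to 7.58) and 9.27 CPM (7.34 to 11.6), a ratio of 1.53 (1.10 to 2.13). These Mmp25 levels lay below those of T cells, 13.9 and 10.5 CPM, and above those of NK cells, 0.489 and 1.08 CPM.

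Mmp9, gelatinase B, had 11 UMIs in PBS macrophages and 161 in UDSP-Hep macrophages, 0.887 CPM (0.443 to 1.59) and 18.9 CPM (16.1 to 22.1), a ratio of 21.3 (11.6 to 43.5). The 8 neutrophil markers moved with it: their sum in the macrophage gate was 150 CPM in PBS, with Stfa2l1 at 0, and 795 CPM in UDSP-Hep, with all 8 detected. In UDSP-Hep there were 4.13 Mmp9 UMIs per 100 UMIs of S100a8 and S100a9 in macrophages, beside 3.43 in neutrophils. In PBS the 2 values were 11.3 and 2.01, the first from 97 S100a8 and S100a9 UMIs. T cells, too, held 3.50 CPM of Mmp9 in PBS and 9.44 CPM in UDSP-Hep. Without the 141 PBS and 271 UDSP-Hep macrophages that had UMIs of 2 or more neutrophil markers, the Mmp9 ratio was 11.4 (4.17 to 38.5). Without the cells of the 2 clusters that are almost all PBS (described further on) it was 151, with an interval of 26.7 to 6006 that shows how few PBS UMIs it rests on.

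**Figure D2:**
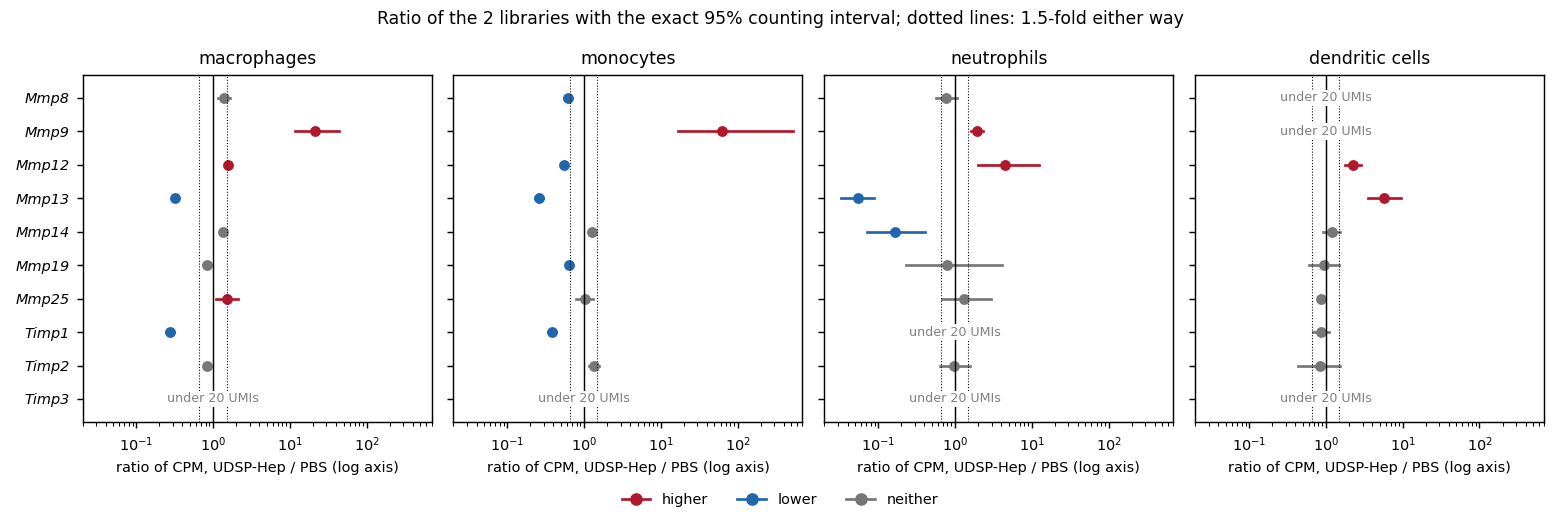
Ratio of the level in UDSP-Hep to that in PBS (log axis) for each gene in macrophages, monocytes, neutrophils and dendritic cells, with exact 95% counting intervals; red points are called higher, blue lower and grey neither, and dotted lines mark 1.5-fold. Mmp13 is at 0.324 in macrophages and 0.259 in monocytes, and Mmp12 is above 1 in macrophages (1.57) and below 1 in monocytes (0.545).

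In monocytes, 5 of 9 genes were lower in UDSP-Hep (Mmp8, Mmp12, Mmp13, Mmp19 and Timp1) and 1 was higher (Mmp9), while 3 were neither. Over all 11447 genes tested in monocytes, 3.57% were called lower and 8.88% higher. The median log2 ratio of the 9 was -0.63, beside 0.14 over all genes. As in macrophages, Mmp13 and Timp1 had the lowest ratios.

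Mmp13 was 88.8 CPM (84.7 to 93.0) in PBS monocytes and 23.0 CPM (20.5 to 25.8) in UDSP-Hep monocytes, a ratio of 0.259 (0.229 to 0.293). Timp1 was 59.3 CPM (56.0 to 62.8) and 22.8 CPM (20.3 to 25.5), a ratio of 0.384 (0.337 to 0.437). Positive monocytes were 10.5% and 2.35% for Mmp13 and 15.1% and 6.69% for Timp1. Both genes were thus found in fewer monocytes of the UDSP-Hep library, whose monocytes had a similar median depth (8675.5 UMIs, against 8328.5 in PBS).

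Mmp12 was 117 CPM (112 to 122) in PBS and 63.8 CPM (59.5 to 68.3) in UDSP-Hep monocytes, a ratio of 0.545 (0.503 to 0.590), the opposite side of 1 from macrophages. Mmp19 was 104 CPM (99.8 to 109) and 67.5 CPM (63.1 to 72.1), with a ratio of 0.647 (0.598 to 0.701). Mmp8 was 50.9 CPM (47.8 to 54.1) and 31.4 CPM (28.4 to 34.6), with a ratio of 0.617 (0.549 to 0.692). With 9 clusters of monocytes given equal weight these 3 genes were no longer called, Mmp12 at 0.904, while Mmp13 (0.603) and Timp1 (0.636) were. The sum of the 7 MMPs was 422 CPM in PBS and 269 CPM in UDSP-Hep, and the most abundant of them was Mmp12 in PBS (27.7% of MMP UMIs) and Mmp14 in UDSP-Hep (25.9%).

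Mmp14 and Timp2 did not follow. Mmp14 was 54.3 and 69.5 CPM in monocytes (ratio 1.28, 1.17 to 1.40) and Timp2 18.4 and 24.8 CPM (ratio 1.34, 1.15 to 1.56). Mmp25 was 7.20 and 7.34 CPM. Mmp9 had 2 UMIs in PBS monocytes and 81 in UDSP-Hep, 0.0986 and 6.20 CPM, a ratio of 62.8 with a wide interval (16.8 to 528). Its share of positive UDSP-Hep monocytes, 2.28%, was below the 2.77% of T cells at a median of 5172 UMIs, so no share of Mmp9-expressing monocytes is read from it. The 81 UMIs lay in 32 cells, with up to 14 in 1 cell. In monocytes the neutrophil markers went the other way, 632 CPM in PBS and 514 CPM in UDSP-Hep.

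The gates hold several cell states, so the genes were also read in clusters built without them. Among the 11 clusters of macrophages and monocytes with at least 20 cells in each library, Mmp12 was highest in a different place from Timp1. Cluster 9, led by Gpnmb and Nos2 (644 PBS and 339 UDSP-Hep cells), had the most Mmp12, 1453 and 1925 CPM, and Mmp13 at 676 and 255 CPM. Cluster 11, led by Cd163 and Retnla, genes of resident-like and alternatively activated macrophages, had the most Timp1, 227 and 242 CPM. In UDSP-Hep its Mmp13 level was also above that of cluster 9, as described further on. Cluster 11 held 508 cells in PBS and 55 in UDSP-Hep. Cluster 12, led by the heat shock genes Hspa1a and Hspa1b, was more uneven still, with 570 and 25 cells.

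**Figure D3:**
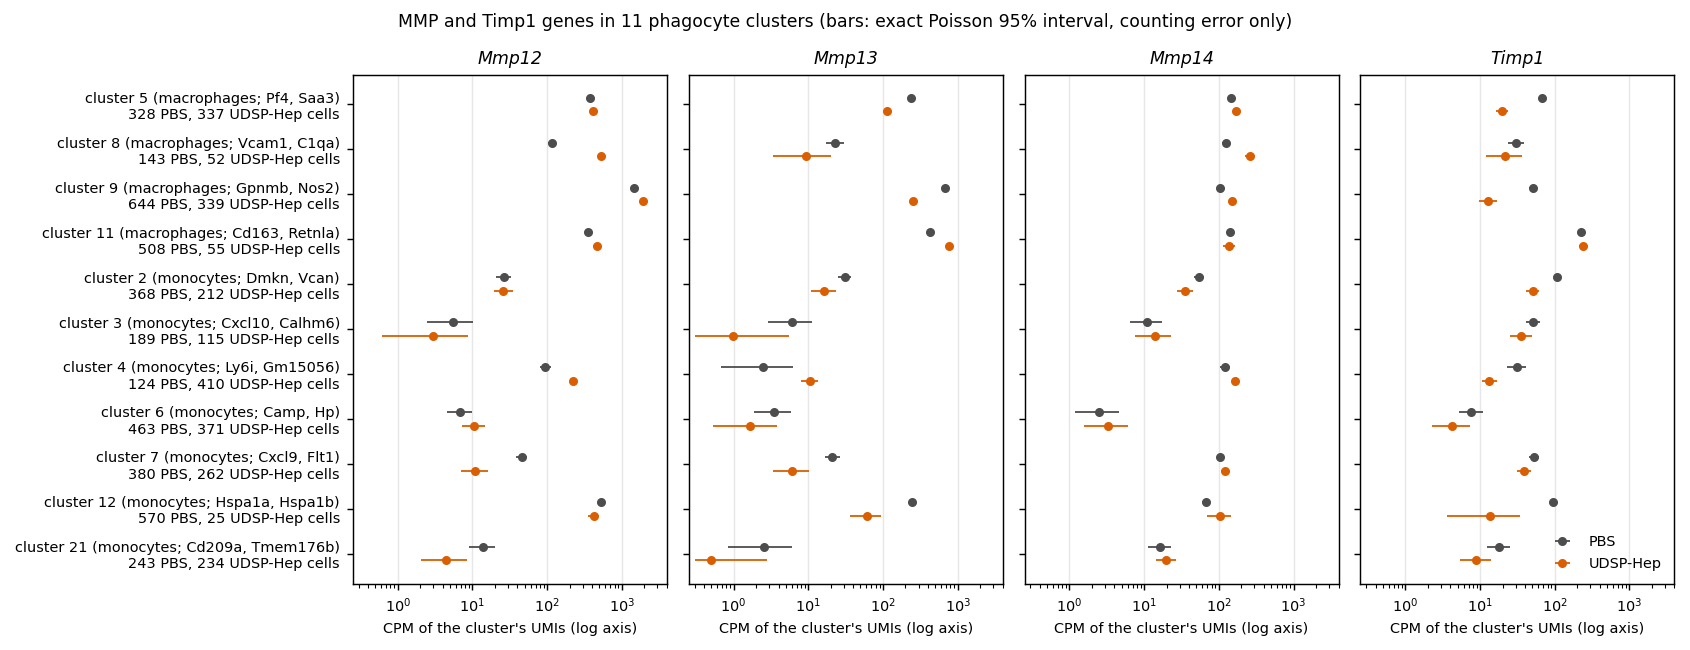
Levels of Mmp12, Mmp13, Mmp14 and Timp1 (CPM, log axis) in the 11 macrophage and monocyte clusters, named by their 2 leading genes with their numbers of cells; grey is PBS, orange UDSP-Hep, and bars are exact Poisson 95% intervals. Timp1 peaks in the Cd163 and Retnla cluster in both libraries (227 and 242 CPM), and Mmp12 in the Gpnmb and Nos2 cluster (1453 and 1925 CPM).

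For Timp1 in gated macrophages, where the cells lay mattered. Cluster 11 held 33.3% of PBS macrophages and 66.1% of their Timp1 UMIs, but 5.71% of UDSP-Hep macrophages and 56.5% of their Timp1 UMIs. Within it Timp1 was not lower: 234 CPM in PBS and 314 CPM in UDSP-Hep, a ratio of 1.34 (1.13 to 1.59) over 332 and 35 cells. Outside it Timp1 was lower in cluster 5, led by Pf4 and Saa3 (56.5 and 18.4 CPM, ratio 0.326), in cluster 8, led by Vcam1 and C1qa (30.6 and 10.5 CPM, ratio 0.341), and in cluster 9 (55.9 and 8.75 CPM, ratio 0.156). The cluster 8 values came from 61 and 6 UMIs. In cluster 4, led by Ly6i, Timp1 was level at 23.5 and 23.3 CPM. When these 5 clusters were given equal weight (a choice made once the data had been seen), the ratio was 0.936. The lower Timp1 of UDSP-Hep macrophages therefore held together 2 measured differences, fewer cells of the Timp1-rich cluster and lower levels in 3 others.

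Mmp13 was lower within 4 of the 5 clusters with at least 20 gated macrophages in each library. In gated macrophages of cluster 9 it was 652 and 267 CPM (ratio 0.409), in cluster 5 it was 219 and 85.5 CPM (ratio 0.390), and in cluster 11 it was 479 and 7.86 CPM, from 2008 and 4 UMIs. In cluster 8 the ratio was 0.408 (0.143 to 0.951), from 51 and 6 UMIs. The levels there were 25.6 and 10.5 CPM, beside 10.5 and 2.08 CPM in T cells. Cluster 12, with 95 PBS and 8 UDSP-Hep gated macrophages, was left out. Cluster 4 went the other way, with 0 UMIs in 20 PBS cells and 22 UMIs (15.6 CPM) in 99 UDSP-Hep cells, and was called higher. In its monocytes, too, Mmp13 was higher, 2.44 and 12.7 CPM (ratio 5.22, 1.34 to 44.8). With the 5 clusters given equal weight its ratio was 0.281. Cluster 11 held 47.6% of the Mmp13 UMIs of PBS macrophages and 0.426% of those of UDSP-Hep. Taken over all its cells, gated or not, cluster 11 had 431 CPM in PBS and 759 CPM in UDSP-Hep, so nearly all of its 624 UDSP-Hep UMIs lay in cells outside the macrophage gate. Of its 55 UDSP-Hep cells, 35 were gated macrophages, so those UMIs lay in few cells. Over whole clusters Mmp13 was lower in 6 and higher in 2 of the 8 with enough UMIs, with ratios from 0.248 to 4.25. Cluster 11 was among those called higher.

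Mmp12 differed from cluster to cluster. Its macrophage UMIs were concentrated in cluster 9, which held 47.7% of them in PBS and 70.7% in UDSP-Hep with 20.9% and 27.7% of the cells. Within cluster 9 the level was 1977 and 2677 CPM (ratio 1.35, 1.30 to 1.41). In cluster 8 it was 131 and 574 CPM (ratio 4.37), in cluster 5 it was 503 and 432 CPM (0.859), and in cluster 11 it was 401 and 104 CPM (0.260). No single ratio describes Mmp12 over these cells.

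Part of the monocyte signal came from cells of cluster 9, too. That cluster held 10.4% of PBS monocytes with 48.9% of their Mmp13 and 46.0% of their Mmp12 UMIs, and 4.69% of UDSP-Hep monocytes with 65.4% and 38.7%. Within those cells Mmp13 was 482 and 305 CPM (ratio 0.632) and Mmp12 597 and 499.8 CPM (ratio 0.837). In the monocytes of cluster 4, Mmp12 was higher in UDSP-Hep, 43.9 and 102 CPM (ratio 2.33), and this cluster held 3.20% of PBS and 15.7% of UDSP-Hep monocytes. The lower monocyte ratios of Mmp12 and Mmp13 thus went with a smaller share of cells in macrophage-like cluster 9, but other shares differed too. Cluster 12 held 377 PBS and 13 UDSP-Hep monocytes, and cluster 11 held 65 and 3. The Mmp12 and Mmp13 UMIs of those monocytes were not read by cluster. The part of any of these shares in the monocyte ratios was not tested.

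Mmp8 and Mmp19 had narrower ranges over the 11 clusters. Mmp8 ratios ran from 0.313 to 1.22 over the 9 clusters with enough UMIs, with the highest PBS level, 110 CPM, in cluster 6, led by the granule genes Camp and Hp (72.3 CPM in UDSP-Hep). Mmp19 ratios ran from 0.503 to 2.21, with 178 and 146 CPM in cluster 2, led by Dmkn and Vcan. Timp1 ratios ran from 0.140 to 1.06. Mmp14 ran from 0.655 to 2.09, and was nearly absent from cluster 6 (2.47 and 3.27 CPM) while above 100 CPM in all 4 macrophage clusters of both libraries.

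Within macrophages the MMPs were not spread evenly over cells. After thinning each cell to 5000 UMIs, which left 787 PBS and 532 UDSP-Hep macrophages, the 79 PBS cells with the most Mmp12 held 85.9% of its UMIs and the 54 such UDSP-Hep cells 85.4%. For Mmp13 these shares were 87.7% and 100%, and for Timp1 72.1% and 100%, the last over 67 UMIs. Both values of 100% were fixed by detection and do not measure spread among positive cells. Fewer than 10% of UDSP-Hep macrophages had a UMI of either gene, 9.96% for Mmp13 and 4.89% for Timp1. Mmp14 was the most evenly spread, at 44.5% and 40.3%, followed by Timp2 at 55.0% and 46.0%. At this depth Mmp12 was found in 26.7% and 28.2% of macrophages, Mmp13 in 23.8% and 9.96%, and Mmp14 in 43.2% and 50.6%.

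**Figure D4:**
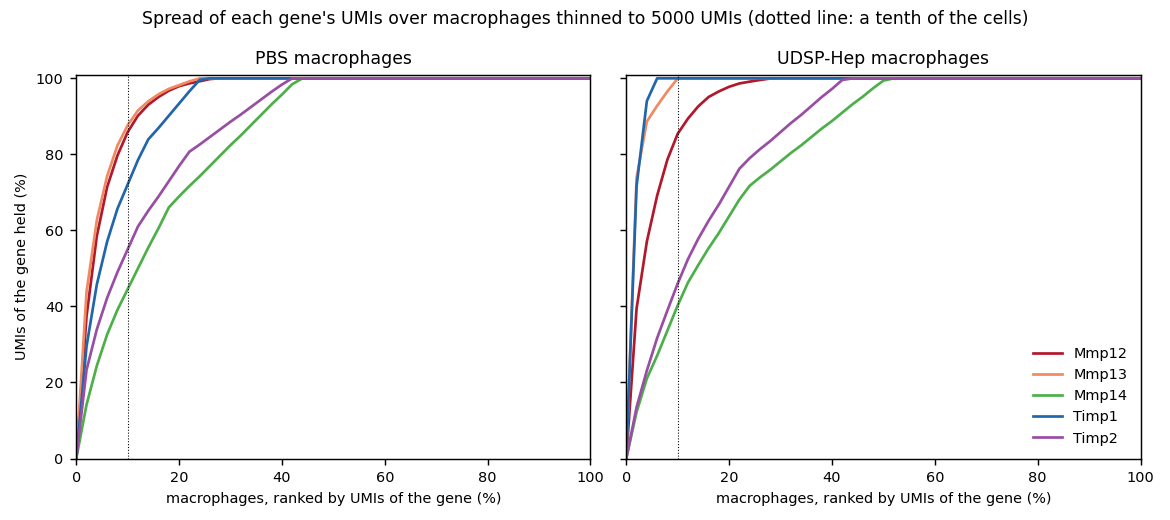
Share of a gene's UMIs (y axis, percent) held by the macrophages with the most of it (x axis, percent of cells), after thinning each cell to 5000 UMIs, for PBS (left) and UDSP-Hep (right). The curves of Mmp12, Mmp13 and Timp1 climb within the top 10% of cells, while those of Mmp14 (44.5% and 40.3% at that mark) and Timp2 (55.0% and 46.0%) climb slowly.

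Mmp12 and Mmp13 tended to share cells. Among PBS macrophages with Mmp12, 51.0% (44.0 to 57.9) also had Mmp13, against 13.9% (11.1 to 17.0) of those without. In UDSP-Hep the shares were 20.7% (14.5 to 28.0) and 5.76% (3.64 to 8.59). Cells with both were 13.6% of PBS and 5.83% of UDSP-Hep macrophages, while cells with Mmp12 alone were 13.1% and 22.4%. Cells with Mmp13 alone were 10.2% and 4.14%. Mmp12 was found in 26.7% and 28.2% of macrophages. With that share about level, fewer Mmp13-positive cells among them leave more cells with Mmp12 alone, so the larger share is no separate result. Monocytes had no such rise, but there Mmp12 itself was found in fewer cells, 9.23% and 6.22%. Mmp13 was found in 7.94% and 1.96% of monocytes, and Mmp12 alone in 6.25% and 5.73%.

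Mmp8-positive macrophages, 52 in PBS and 41 in UDSP-Hep, carried Mmp12 in 59.6% and 65.9% of cells, against 24.4% and 25.1% of the others. They carried Mmp13 in 63.5% and 26.8%, against 21.0% and 8.55%. Among macrophages, each of the 3 chromosome 9 neighbours was thus more frequent in cells that had another of them. For Mmp8 this did not extend to PBS monocytes. Mmp8-positive PBS monocytes had Mmp12 in 7.96% against 9.47% of the others, and Mmp13 in 6.05% against 8.31%. In UDSP-Hep monocytes these shares were 8.22% against 5.95%, and 3.42% against 1.77%. The intervals of each of these monocyte pairs overlapped. Timp1 did not share this pattern in macrophages. Mmp12 was found in 22.0% of Timp1-positive and 28.2% of Timp1-negative PBS macrophages, with overlapping intervals (16.3 to 28.5 and 24.6 to 32.0). PBS monocytes differed. Those with Timp1 had Mmp12 in 15.4% against 8.39% of the others, and Mmp13 in 16.7% against 6.76%, with intervals apart. In UDSP-Hep monocytes these shares were 8.2% against 6.12%, and 1.64% against 1.98%, with overlapping intervals. Cells of 1 library are not replicates, and these intervals count cells only.

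The companions of Timp1 and Mmp12 among macrophage state genes differed in the same way in both libraries. Macrophages with Timp1 (191 in PBS, 26 in UDSP-Hep) had more Chil3, a chitinase-like marker of alternative activation, 2733 CPM against 606 in PBS and 3092 against 266 in UDSP-Hep. They had more Ccl24, an eosinophil chemokine (8231 against 2147, and 6054 against 465 CPM), and more Fn1, fibronectin (3520 against 1023, and 2938 against 489 CPM). They had less Gpnmb, a gene of lipid-laden and lysosome-rich macrophages, at 94.2 against 278 CPM in PBS (ratio 0.339) and with a ratio of 0.198 in UDSP-Hep.

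Macrophages with Mmp12 (210 and 150) had more Gpnmb, where those with Timp1 had less. Gpnmb was 441 against 158 CPM in PBS and 915 against 316 in UDSP-Hep. Ctsk, cathepsin K, which also cuts collagen, was 165 against 29.8, and 125 against 35.1 CPM. Nos2, the inducible nitric oxide synthase, was 117 against 44.7, and 225 against 74.9 CPM. Complement C1qa was lower in Mmp12-positive cells, at 1200 against 1993 and 991 against 1913 CPM. Mmp13-positive cells shared the higher Ctsk (125 against 47.3, and 132 against 52.6 CPM) and had more of the matrix glycoprotein Spp1, osteopontin (2619 against 1030, and 1717 against 603 CPM). Mmp14 followed neither: Fn1 was 1884 against 1436 and 708 against 506 CPM in cells with and without it.

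**Figure D5:**
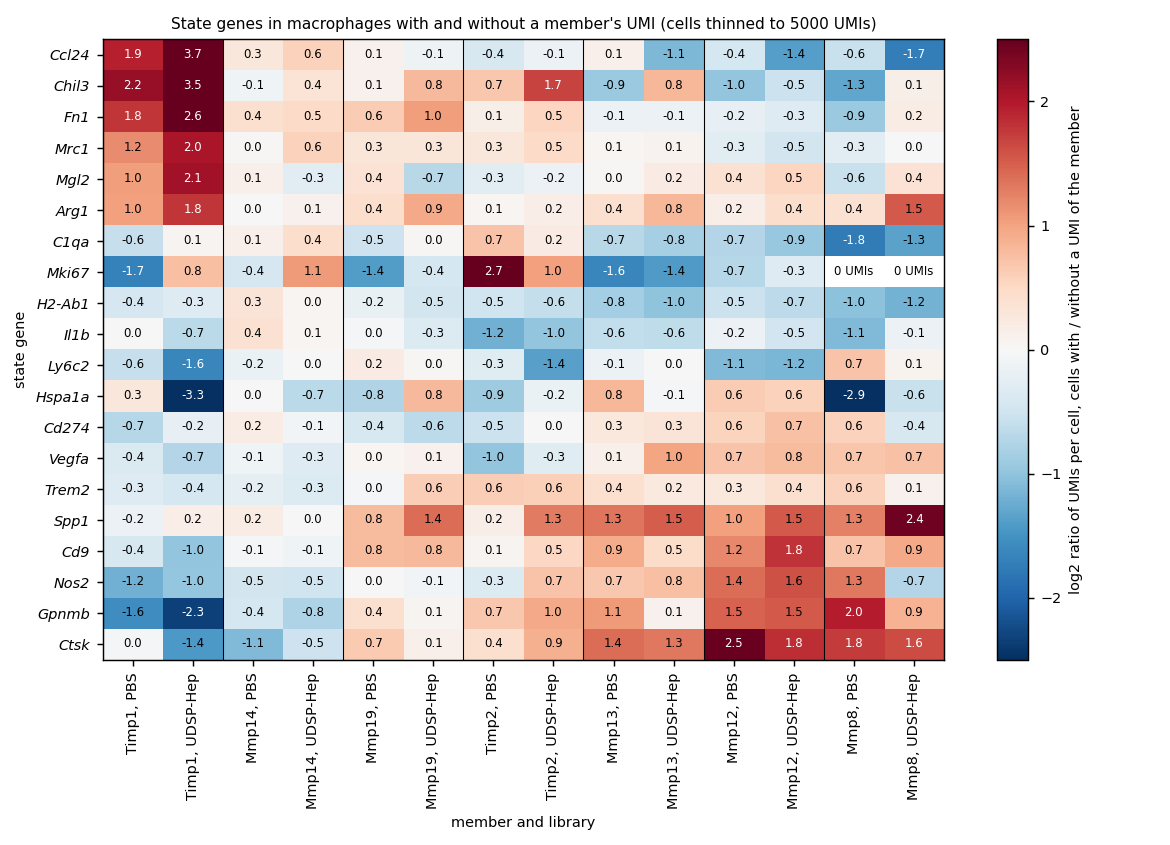
Log2 ratio of the UMIs per cell of 20 macrophage state genes (rows) between macrophages with and without a UMI of each gene (columns, by library), after thinning cells to 5000 UMIs; red is more in positive cells and blue less. Timp1 columns are red for Ccl24, Chil3 and Fn1 and blue for Gpnmb, and Mmp12 columns are red for Ctsk, Gpnmb and Nos2.

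In neutrophils, Mmp9, which these cells store in granules, was the leading MMP in both libraries. Of the 8 genes with enough UMIs, 2 were called higher in UDSP-Hep (Mmp9 and Mmp12), 2 lower (Mmp13 and Mmp14) and 4 neither, against 11.4% higher and 12.8% lower over all 6084 genes tested. The PBS side rests on 52 cells with 209722 UMIs, and the UDSP-Hep side on 661 cells with 1706033. The median log2 ratio of the 8 genes was -0.19, beside 0.09 over all genes.

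Mmp9 was 663 CPM (557 to 783) in PBS neutrophils and 1279 CPM (1226 to 1334) in UDSP-Hep neutrophils, a ratio of 1.93 (1.63 to 2.31). Positive cells were 48.1% and 63.8% as deposited, and 44.0% and 51.0% after thinning to 1000 UMIs. Mmp9 made up 50.9% of the MMP UMIs of PBS neutrophils and 76.7% of those of UDSP-Hep. After thinning the ratio was 1.25 and no longer called.

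The neutrophils fell into clusters that differed widely in Mmp9. Cluster 23, led by S100a8 and with Cxcr2 and Retnlg among its leading genes, held 39 PBS and 581 UDSP-Hep cells with 1231 and 1592 CPM of Mmp9 (ratio 1.29, 1.08 to 1.57). Cluster 28, led by Lcn2 and Slpi, held 14 PBS cells with no Mmp9 UMI and 260 UDSP-Hep cells with 149 CPM. Nearly all neutrophil Mmp9 of UDSP-Hep thus lay in the cluster with Cxcr2 and little in the cluster with Lcn2. In the same way, thinned UDSP-Hep neutrophils with Mmp9 (317) had more of the chemokine receptor Cxcr2 than those without (304), 1372 against 872 CPM, and less Lcn2, 1142 against 4026 CPM. In PBS the values were 1636 against 464 for Cxcr2 and 545 against 1786 CPM for Lcn2, over 22 and 28 cells.

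Mmp8 in neutrophils was 219 CPM (161 to 293) in PBS and 169 CPM (150 to 189) in UDSP-Hep, a ratio of 0.770 (0.562 to 1.07) that was not called. It was in few cells, 21.2% and 8.77%. The 36 thinned UDSP-Hep neutrophils with Mmp8 had 5083 CPM of Retnlg, a neutrophil granule protein gene, against 239 CPM in the 585 without. Timp2 was the neutrophils' TIMP, at 110 CPM (69.5 to 165) and 108 CPM (92.8 to 125). Timp1 had 7 UMIs in PBS neutrophils (33.4 CPM) and 0 in UDSP-Hep, where 0 counts allow up to 1.76 CPM, and Timp3 had none.

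The other neutrophil calls came down to single cells. Of the 59 Mmp13 UMIs of PBS neutrophils (281 CPM), 58 lay in 1 cell, and UDSP-Hep had 26 UMIs (15.2 CPM), a ratio of 0.0542. Without the top cell of each library the ratio was 2.29 and not called. Of the 218 Mmp12 UMIs of UDSP-Hep neutrophils (128 CPM), 135 lay in 1 cell, against 6 UMIs in PBS (28.6 CPM), a ratio of 4.47. Of the 11 Mmp14 UMIs in PBS (52.5 CPM), 9 were in 1 cell, against 15 in UDSP-Hep (8.79 CPM), a ratio of 0.168. Macrophage markers summed to 892 CPM in PBS and 400.3 CPM in UDSP-Hep neutrophils.

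In dendritic cells, Mmp25 led in both libraries and was a gene of the mature, Ccr7-positive type. Of the 7 genes with enough UMIs, 2 were called higher (Mmp12 and Mmp13), none lower and 5 neither, against 6.76% higher and 5.95% lower over all 10644 genes tested. The median log2 ratio of the 7 was -0.060, beside 0.033 over all genes. In mature dendritic cells (161 in PBS, 46 in UDSP-Hep) Mmp25 was 713 CPM (677 to 750) and 812 CPM (738 to 891), with a ratio of 1.14 (1.02 to 1.27). None of the 3 genes with enough UMIs in these cells was called, where 8.38% of all genes were higher and 3.93% lower. Mmp25 was found in 92.5% and 91.3% of them, and made up 97.2% and 94.7% of their MMP UMIs.

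In the other dendritic types Mmp25 was much lower. Conventional dendritic cells of type 2 (cDC2) had 40.8 CPM (34.7 to 47.8) in PBS and 49.0 CPM (40.5 to 58.8) in UDSP-Hep, and cDC1 had 9.05 and 7.29 CPM. In cDC1 none of 4 genes was called, on only 14 UDSP-Hep cells, where 5.47% of all genes were higher and 4.71% lower. Mmp25 in dendritic cells as a whole was 205 and 176 CPM (ratio 0.859), a value that depends on how many of them were mature. Of all Mmp25 UMIs, gated mature dendritic cells held 65.5% in PBS and 34.9% in UDSP-Hep.

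The cDC2 carried the TIMP of the dendritic cells. Timp1 was 68.8 CPM (60.7 to 77.7) in PBS cDC2 and 39.7 CPM (32.1 to 48.6) in UDSP-Hep cDC2, a ratio of 0.577 (0.451 to 0.733), over 243 and 166 cells. It was the only 1 of the 7 genes tested in cDC2 called lower, where 2 were called higher (Mmp12 and Mmp13) and 4 neither; over all 9564 genes tested in cDC2, 2.89% were lower and 5.34% higher. Mmp12 in cDC2 was 32.4 CPM (26.9 to 38.7) and 59.6 CPM (50.1 to 70.2), a ratio of 1.84 (1.43 to 2.36), with positive cells at 11.5% and 13.3%. For Mmp13, 59 of the 61 UDSP-Hep UMIs lay in 1 cell. Without the top cell of each library its dendritic ratio went from 5.73 to 0.363, which was not called.

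Timp3 was found mainly in PBS mature dendritic cells, with 17 UMIs (8.19 CPM), 11 of them in 1 cell. UDSP-Hep mature dendritic cells had 0, which allows up to 5.50 CPM. In plasmacytoid dendritic cells Timp2 was the main gene of the 10, at 66.7 CPM (50.6 to 86.2) in PBS and 39.96 CPM (21.8 to 67.0) in UDSP-Hep, in 42.9% and 25.7% of 84 and 35 cells.

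In T and NK cells Timp2 was the highest of the 10 genes in both libraries. T cells had 27.9 CPM (24.7 to 31.4) of Timp2 in PBS and 50.1 CPM (45.4 to 55.2) in UDSP-Hep, in 14.6% and 16.8% of cells. NK cells had 25.9 CPM (19.4 to 33.9) and 32.6 CPM (28.4 to 37.3), in 9.81% and 12.3%. Mmp12, at 19.3 and 17.3 CPM in T cells and 6.36 and 9.23 CPM in NK cells, was far under its macrophage level. Summed, the MMPs of T cells had 538 UMIs in PBS and 405 in UDSP-Hep, beside 303 and 421 of the TIMPs. In B cells Mmp12 had 0 UMIs in PBS and 46 in UDSP-Hep, 44 of which lay in 1 cell, and 22 of the 24 UDSP-Hep Mmp13 UMIs also lay in 1 cell. Nonclassical monocytes were low in all 10, with Timp2 (20.1 and 16.4 CPM) and Mmp12 (8.04 and 18.2 CPM) the highest. None of the 3 genes with enough UMIs there was called, where 6.53% of all genes were higher and 2.91% lower.

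Summed over the family, MMP UMIs per TIMP UMI were 3.59 in PBS macrophages and 6.65 in UDSP-Hep macrophages. In monocytes they were 5.43 and 5.64, so the lower Timp1 there went with lower MMP sums. In neutrophils they were 9.10 and 15.5, and in cDC2 1.70 and 4.11. Mature dendritic cells had the highest values, 34.6 and 58.5, from few TIMP UMIs (44 and 8), and plasmacytoid dendritic cells a low one, 0.397 in PBS from 23 MMP and 58 TIMP UMIs. These are ratios of RNA counts and say nothing of active protease.

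Over 22 profiles (the gated groups with enough cells, in each library) the genes most like each of the 10 were found among 11936 genes by the Pearson correlation of log2(CPM + 10). The profiles share libraries and cell gates, so the values describe likeness only. Mmp9 was closest to the neutrophil genes Cstdc4 (r = 0.989), Chil1 (0.984) and Il1f9 (0.982). Mmp8 was closest to Arg2 (0.970), Cebpe (0.966), a granulocyte transcription factor, and Smox (0.946). Mmp12 had no match as close, with Igf2bp2 (0.887), F7 (0.880) and Siglec1 (0.879). Mmp13 went with Slc7a2 (0.935), a cationic amino acid transporter, Fcrlb (0.913) and Flrt2 (0.907).

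Mrc1, the mannose receptor and 1 of the macrophage gate markers, was the closest gene to both Mmp14 (0.917) and Timp1 (0.930). After it came Renbp (0.903) and Rab3il1 (0.903) for Mmp14, and Dab2 (0.920) and Cysltr1 (0.897) for Timp1. Mmp19 was closest to F13a1 (0.961), a monocyte gate marker and coagulation factor subunit, then Gm32089 (0.931) and Tfec (0.917). Mmp25 went with Gstt1 (0.920), Gstt3 (0.916) and Mreg (0.905), and Timp2 with Rnf128 (0.853), Gde1 (0.828) and Atp6v0d2 (0.826), the lowest values of the 9.

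Genes that act with the MMPs were read from fixed lists. Of 15 other MMPs in the files, only Mmp27 had enough UMIs in macrophages and it was neither higher nor lower; Mmp2, the substrate of Mmp14, had 2 and 11 macrophage UMIs. Timp4 had no UMI in any of the 4 main groups, and Reck, a membrane inhibitor of MMPs, had at most 5. Of the 10 tested genes of activation and docking, which include the plasminogen activator system and binding partners of MMPs, 1 was higher, 1 lower and 8 neither in macrophages. Their median log2 ratio was 0.062, close to that of all genes (0.089).

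The gene called higher there was Lcn2, a neutrophil protein that binds Mmp9: 1.45 CPM in PBS macrophages and 18.2 CPM in UDSP-Hep macrophages (ratio 12.5, 7.67 to 21.7), beside the neutrophil markers given above. In neutrophils themselves Lcn2 was 730 and 2661 CPM (ratio 3.65, 3.10 to 4.31). Plaur, the urokinase receptor, was 236 and 289.5 CPM in macrophages and 446 and 502 CPM in monocytes, neither called, and 63.5 and 136 CPM in dendritic cells (ratio 2.14). Bsg, an inducer of MMPs, was 538 and 473 CPM in macrophages and 399 and 314 CPM in monocytes. Plau, urokinase itself, was lower in monocytes, 29.9 and 13.1 CPM (ratio 0.438).

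Among 8 tested matrix genes and matrix receptors, 2 were higher in UDSP-Hep macrophages and 3 lower, with a median log2 ratio of -0.30. Fn1 was 1654 and 617 CPM (ratio 0.373, 0.362 to 0.384), Mrc1 1453 and 812 CPM (ratio 0.559) and Spp1 1181 and 685 CPM (ratio 0.580). Thbs1, thrombospondin, was higher, 849 and 1548 CPM (ratio 1.82), as was Col4a1 from 14 and 22 UMIs (ratio 2.29). In monocytes Spp1 was 574 and 136 CPM (ratio 0.238) and Mrc1 375 and 138 CPM (ratio 0.369). Fn1, higher in macrophages with Timp1, and Mrc1, the gene closest to Timp1 over the profiles, were thus lower together with Timp1 in macrophages.

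None of 6 ADAM and ADAMTS proteases and none of 5 serine and cysteine proteases was called in macrophages. Adam8, a myeloid surface protease, was 649 and 436 CPM there (ratio 0.673), just inside the threshold, and 424 and 217 CPM in monocytes (ratio 0.512), where it was called lower.

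In neutrophils 4 of 6 matrix genes were lower and 2 neither, among them Mrc1 (601 and 28.1 CPM), Fn1 (443 and 44.0 CPM) and Spp1 (2427 and 1353 CPM). Of all genes tested in neutrophils, 12.8% were lower. The 9 macrophage markers summed to 892 and 400.3 CPM in that gate, Mrc1 being 1 of them and holding most of the PBS sum, and their part was not tested. In dendritic cells 4 of 10 activation and docking genes and 3 of 7 matrix genes were higher and none lower, beside 6.76% of all genes higher. In the same gate the macrophage markers were 211 and 305 CPM and the monocyte markers 1132 and 1613 CPM, and cDC2 made up 243 of 490 and 166 of 226 cells. The part of these differences was not tested. These include Plat (3.59 and 11.6 CPM), Fn1 (30.2 and 67.4 CPM) and Thbs1 (73.1 and 145 CPM), and the inhibitor Cst3 was lower (12904 and 8178 CPM).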

How the data were processed

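Libraries of CD45+ tumour leukocytes were used, 1 per group. The deposited matrices hold whole UMI counts per gene and cell barcode; per the file headers the authors ran Cell Ranger 7.0.0; Seurat and the build mm10 come from the submitters' processing notes. No source used here gives the capture chemistry. Cells with at least 500 UMIs, 200 genes and under 10% mitochondrial UMIs were kept. The threshold of Scrublet marked 1 barcode per library, under the 0.5% taken as working, so the highest scores were removed at 0.8% per 1000 barcodes (474 and 481 cells). A cell joined the highest of 14 marker scores if it had 3 markers and led by 0.05. Myeloid cells with at least 2 T cell markers were left out, as were T, NK and B cells with at least 3 macrophage markers. This took out 58 PBS and 90 UDSP-Hep T cells, so the T cell levels above leave out cells with that much macrophage RNA. Clusters (29) came from Leiden at resolution 2 on 30 principal components without the 10 genes (scanpy 1.11.5, scipy 1.17.1). Ratio intervals were tested on simulated Poisson counts, the same counting error that they assume. That test does not cover UMIs gathered in single cells or the spread between tumours. No test between groups was possible with 1 library each. The 10 genes, gene lists and markers were chosen with earlier results of these data known. Named pathway genes are those called, at most 4 a direction and group, plus Mmp2, Reck, Adam8, Plaur, Bsg, Lcn2 and Timp4; the 3 most alike genes are given for each of the 10 with at least 100 UMIs. Alternatives changed filters, gates, clusters, depth, scaling, fold and minimum count; 5 more were chosen after seeing the data. Some results for pathway genes are not reported here.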

Additional observations from a re-analysis of the deposited data

Results flagged for a closer look

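Mmp12 and Mmp13 were past 1.5-fold in opposite directions in different cell groups. For Mmp12 the ratio of UDSP-Hep to PBS was 1.57 in macrophages, 4.47 in neutrophils and 2.26 in dendritic cells, but 0.545 in monocytes. For Mmp13 it was 0.324 in macrophages, 0.259 in monocytes and 0.0542 in neutrophils, but 5.73 in dendritic cells. With 1 library per group the difference between cell groups was not tested. The neutrophil value of Mmp12 and the neutrophil and dendritic values of Mmp13 rest mostly on 1 cell each, with 135 of 218, 58 of 59 and 59 of 61 UMIs.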

How the results depend on the processing

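No paired analysis was possible because each group has 1 library. Counting the setting reported above, Mmp13 was called lower in all 14 settings in macrophages (0.269 to 0.522) and monocytes (0.0967 to 0.603), as was Timp1 in monocytes (0.347 to 0.636). Timp1 in macrophages was lower in 13 of 14 (0.180 to 0.936). Mmp12 in macrophages was higher in 10 of 14 (1.29 to 1.92), Mmp25 in 7 of 14 (1.11 to 2.16) and Mmp9 in neutrophils in 8 of 11 (1.23 to 1.93). The number of genes called higher in macrophages went from 3 to 1 with cells thinned to 1000 UMIs, with median-of-ratios scaling and with a fold of 2, and, in alternatives chosen after seeing the data, to 1 without the 2 clusters that are almost all PBS and to 1 with each cluster weighed the same, where those called lower went from 2 to 1. In monocytes the number higher went from 1 to 3 with whole clusters placed in the groups, to 0 with thinned cells and to 0 without cells that had 2 or more neutrophil markers (added later); the number lower went from 5 to 2 with a fold of 2 and to 2 with clusters weighed the same. In neutrophils the number higher went from 2 to 0 with placed clusters, 0 with thinned cells, 1 with a fold of 2 and 1 without the top cell of each gene (added later); the number lower went from 2 to 0 with placed clusters, 0 with a gate of 1 more marker, 1 with thinned cells and 0 without the top cell. In dendritic cells the number higher went from 2 to 1 with mitochondrial share under 5%, 0 with thinned cells and 1 without the top cell; the number lower went from 0 to 1 with placed clusters and 1 with no minimum count. Ratios that changed side were Mmp13 in neutrophils, 2.82 with the stricter gate and 2.29 without the top cell, Mmp12 in neutrophils, 0.805 with thinned cells, and Mmp13 in dendritic cells, 0.214 with placed clusters and 0.363 without the top cell. In whole cells the 10% of macrophages with the most held 96.8% of Mmp13 UMIs in UDSP-Hep and 59.4% of Timp2 UMIs in PBS. Beyond the alternatives' own construction (fewer UMIs, cells or a higher fold), the cause was not tested. Of 199 alternative values of the 17 called ratios, 164 kept the call. This count, and the settings counted per gene above, leave out the fold of 2 and the setting without a minimum count. Ratios of 0 or infinity are left out as well. That leaves Mmp9 in monocytes with 12 settings and Mmp14 in neutrophils with 9. Scaling by the median gene shifts log2 ratios by 0.14 in monocytes and under 0.1 elsewhere. Where cells or clusters were weighed the same, calls are by fold alone. Depth limits the neutrophil comparison, with 209722 UMIs in PBS.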
